A study of Mus musculus with 17 samples.

Results

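TEC genes are an annotation class of mostly short loci, placed on the mouse genome from cDNA or polyadenylation evidence, that await an experimental test of whether they are genes of their own. The deposited table held 55359 genes, of which 3219 were TEC genes in GENCODE mouse release 39 on GRCm39. Of these, 124 were chosen by a mean of 20 or more reads (RSEM expected counts) over the 9 forebrain libraries, and their levels were followed across genotypes in forebrain and testes. They were split by position into 36 lying wholly inside a protein-coding gene on the same strand, the host, and 88 that did not. The working name given to these genes was unspliced RNA readout. By position it could apply to the 34 that lie within an intron of a same-strand host. If strand was ignored in counting, it could also apply to genes over an intron of an opposite-strand gene. Whether the reads came from unspliced RNA was not tested.

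The study compared 1-day-old male pups of the Ocn_GK strain (129/SvEv) that carry WT, Ocn+/- or Ocn-/- alleles of Osteocalcin (Ocn), a hormone made by osteoblasts. WT pups were born to WT mothers, while Ocn+/- and Ocn-/- pups were born to Ocn-/- mothers, so the genotype of the pup, the genotype of the mother and the litter cannot be told apart in a comparison with WT. Testes gave 2 WT, 3 Ocn+/- and 3 Ocn-/- libraries, and forebrain gave 3 of each. The legend of the study's forebrain heatmap gives 2 WT mice. The labels name the brain tissue Hippocampus, whereas the study describes forebrain including hippocampus, and the latter name is kept. Whether the replicates of a genotype came from separate litters was not given, and p-values measure the spread between these samples.

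As background, messenger RNA is made by cutting introns out of a longer precursor in the nucleus and adding a poly(A) tail. Poly-T beads catch RNA by its tail, yet a stretch of adenines inside an intron can also bind to oligo-dT, and polyadenylation inside an intron gives a short transcript that ends there. A read inside an intron can therefore come from precursor RNA, from a retained intron, from an early-ending transcript or from an independent gene, and a count of reads does not tell these apart. In bulk tissue fewer cells of a type and less RNA per cell cannot be told apart either.

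The libraries held 7302401 to 8289015 counts in testes and 6518151 to 14621584 in forebrain. The shallowest forebrain library, WT replicate 3, stood apart: its 13 mitochondrial mRNAs summed to 43405 CPM (normalised read count by TMM, scaled to a common library size), against 22011 to 29098 CPM in the other 8, and the counts of called forebrain genes are also given without it. Of the tissue markers, 4 neuronal genes were at 2607 to 3060 CPM in forebrain and 37.6 to 51.8 CPM in testes, and 4 Sertoli cell genes were at 751 to 1093 CPM in testes and 25.6 to 41.6 CPM in forebrain. A list of 4 oligodendrocyte lineage genes was higher in testes, at 717 to 1093 CPM, than in forebrain, at 203 to 242 CPM. Bglap, an Ocn gene, had 0 to 5 counts per library, too few to check the genotype.

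All 124 TEC genes had 1 exon, 553 to 30942 bases long with a median of 2560. The 36 inside genes made up 29.0% of the 124, against 1557, or 48.4%, of all 3219 TEC genes. They lay in 36 different hosts, with a median length of 69458.5 bp, and 34 lay within an intron of a host transcript. Of these, 10 were in the last intron and 3 in the first. In 4 the annotated span overlapped exons of the host, most of all Gm38077 in Mrpl3 (3140 of 3245 bases) and Gm49759 in Pkm (3157 of 3887 bases), so their reads cannot be separated from host messenger RNA. Of the 88 others, 10 lay inside a gene of the opposite strand, 24 overlapped a protein-coding gene in part, 24 started within 10 kb past the end of a same-strand gene and 30 had none of these positions. The strand setting of the counting was not stated and the library kit as named does not mark strand. This touches the 44 of 88 outside and 6 of 36 inside that overlap exons of the opposite strand, and also TEC genes that lie over an intron of an opposite-strand gene.

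Selection used the mean count over all 9 forebrain libraries, and these levels are a description. Just inside the limit were A230103L15Rik (20.3), 9430062P05Rik (20.2) and Gm37621 (20.1). Just outside it were 6430511E19Rik (19.8), Gm43681 (19.6) and 5930409G06Rik (19.4). Of the 36 inside genes, 30 had a mean of 20 or more in WT and in mutant libraries alike, 4 only in WT and 2 only in mutants. The 4 were Gm45221, Gm42462, Gm43389 and Gm48804. Outside, 68 reached it in both, 3 only in WT (Gm43279, 9430062P05Rik and Gm37621) and 17 only in mutants. A gene that was chosen through its WT level alone was bound to lean lower in the mutants, and counts are also given without these 7. By the same rule the 2 inside and 17 outside genes chosen through the mutants alone were bound to lean higher. They stay in those counts, so the choice of genes still differs between the positions. Counts were low, with 45 of 124 at a mean of 50 or more, and together the 124 held 0.053 to 0.067% of the counts of a forebrain library.

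The genome sequence at the annotated 3′ end of a TEC gene can hold a polyadenylation signal or a run of adenines. The last 50 bases were searched on the gene's own strand for the polyadenylation signals AATAAA and ATTAAA, and the stretch from 10 bases before to 40 bases after the end was searched for AAAAAA. Among all TEC genes inside a same-strand host, 19.7% of 1557 held either signal and 45.0% held AAAAAA, against 37.9% and 14.1% of 1662 TEC genes elsewhere. Among the 124, either signal stood in 10 of 36 inside genes (27.8%) and in 58 of 88 others (65.9%). AAAAAA stood in 10 of 36 (27.8%) and 12 of 88 (13.6%). For comparison on the opposite letters, TTTTTT stood in the same window of 2 inside genes and 6 others. These matches describe letters and do not show where a transcript ended.

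The ends of 7 intronic TEC genes are shown because the first 5 were lower in both mutant genotypes in forebrain and lay within an intron, and the last 2 had the highest counts among intronic TEC genes that were not called. Each sequence is the GRCm39 genome from 50 bases before to 40 bases after the annotated 3′ end, 5′ to 3′ on the gene's strand, and capitals mark a polyadenylation signal within the last 50 bases or a run of AAAAAA or longer around the end. They lie, in order, at chr7:89837357-89837446 (plus strand), chr7:80560081-80560170 (minus), chr3:119521357-119521446 (minus), chr4:131610499-131610588 (plus), chr14:49261347-49261436 (minus), chr5:54066511-54066600 (plus) and chr12:98763279-98763368 (plus).
Gm45221 in Picalm: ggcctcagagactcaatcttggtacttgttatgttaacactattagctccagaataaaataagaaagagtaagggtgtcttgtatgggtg
Gm45718 in Sec11a: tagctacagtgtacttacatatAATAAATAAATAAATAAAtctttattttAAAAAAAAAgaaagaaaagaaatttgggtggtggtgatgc
Gm43300 in Ptbp2: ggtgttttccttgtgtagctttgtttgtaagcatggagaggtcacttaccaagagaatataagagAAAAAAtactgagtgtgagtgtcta
A930004J17Rik in Srsf4: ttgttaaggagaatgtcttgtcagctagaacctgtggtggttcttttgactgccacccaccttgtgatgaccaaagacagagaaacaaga
Gm49204 in Exoc5: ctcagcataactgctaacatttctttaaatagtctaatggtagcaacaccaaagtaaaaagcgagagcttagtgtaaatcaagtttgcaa
Gm43268 in Tbc1d19: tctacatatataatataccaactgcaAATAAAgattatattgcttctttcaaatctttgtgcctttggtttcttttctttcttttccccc
Gm48062 in Zc3h14: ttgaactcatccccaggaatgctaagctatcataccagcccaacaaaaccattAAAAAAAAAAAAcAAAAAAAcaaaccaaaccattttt
Of the 5 that were lower, only the ends of Gm45718 and Gm43300 held AAAAAA and only that of Gm45718 held a signal within the window. Both kinds of letters were thus found in TEC genes that were called and in those that were not.

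In forebrain, the summed level of the 36 TEC genes inside a host was lower in both mutant genotypes than in WT. The sum itself was not tested. Of the 36 single genes, 11 were called lower in Ocn+/- and 9 in Ocn-/-, and 3 and 5 had a log2 fold change above 0. The sum was 191.3, 169.3 and 225.2 CPM in WT, 108.7, 109.3 and 109.5 in Ocn+/-, and 130.8, 110.1 and 120.3 in Ocn-/-. Every mutant library lay below every WT library, at 0.559 and 0.617 times the WT mean for Ocn+/- and Ocn-/-. The sum holds the 4 inside genes that reached the limit only in WT, as do the counts per host below, and neither is given without them. The 88 other TEC genes summed to 465.3, 423.2 and 514.1 CPM in WT, 422.4, 418.9 and 408.6 in Ocn+/-, and 433.6, 402.8 and 418.0 in Ocn-/-. Their ratios to WT were 0.891 and 0.894, and the Ocn-/- range overlapped that of WT. The 36 hosts themselves summed to 4728 to 5100 CPM in WT and 4563 to 4675 CPM in the mutants, ratios of 0.951 and 0.947. Per 100 counts of a host, inside TEC genes therefore gave 3.56 to 4.42 counts in WT, 2.34 to 2.40 in Ocn+/- and 2.39 to 2.82 in Ocn-/-.

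**Figure D1:**
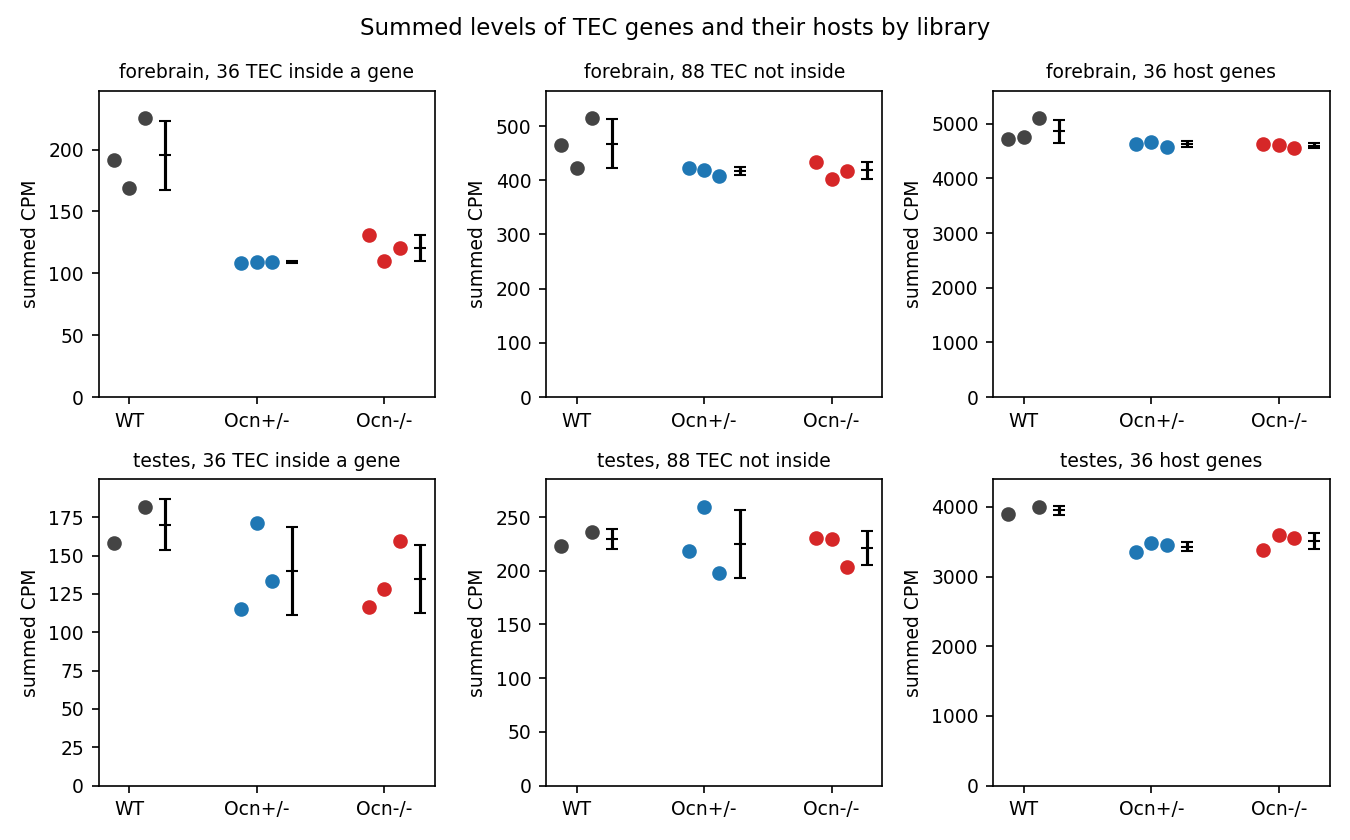
Summed CPM per library (points, vertical axis from 0) of 36 TEC genes inside a same-strand gene, 88 TEC genes elsewhere and the 36 host genes, by genotype in forebrain (top) and testes (bottom), with mean and SD of each genotype as bars. In forebrain the 6 mutant libraries of the inside group lay at 108.7 to 130.8 CPM, below WT at 169.3 to 225.2 CPM, while in testes the genotypes overlapped in the inside group. The inside sum holds the genes that reached the limit only in WT.

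Gene by gene, edgeR's quasi-likelihood test over all 16076 forebrain genes, with Benjamini-Hochberg adjustment, called 14 of the 124 lower in Ocn+/- than in WT and 0 higher. Of all genes tested, 3.89% were called in this comparison, 2.68% lower and 1.21% higher. The 14 comprised 11 of 36 inside a host and 3 of 88 others. In Ocn-/- against WT, 12 were called lower and 0 higher, 9 inside and 3 others, where 4.85% of all genes were called, 3.05% lower and 1.8% higher. Called in both comparisons were 9 genes, 7 of them inside a host. Of the 27 inside genes free of exons of other genes, 6 were called lower in each comparison. Without the 7 genes that reached the limit only in WT, 9 and 8 of 32 inside genes and 2 and 2 of 85 others were called lower in Ocn+/- and Ocn-/-, with medians of -0.71 and -0.59 inside and -0.10 and -0.09 elsewhere. The genes that reached the limit only in mutants, 2 inside and 17 elsewhere, stay in these counts. Both comparisons share the WT libraries.

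All 124 passed the filter on low counts in forebrain. The median log2 fold change of the inside genes was -0.85 in Ocn+/- and -0.63 in Ocn-/-, against -0.16 and -0.12 for the others and 0.006 in both for all genes tested. Over the 10 inside genes with a mean of 50 or more reads it was -0.53 and -0.43. The fold change was below 0 in 33 and 31 of the 36, and in 58 and 54 of the 88, where 49.1% and 49% of all genes were below 0. All 6 mutant libraries lay below all 3 WT libraries in 17 of 36 inside genes and 7 of 88 others, against 8.57% of all genes tested. The reverse order held in 0 and 3, against 6.85% of all genes. Without the 7 genes that reached the limit only in WT, all mutants lay below WT in 14 of 32 and 5 of 85, and the fold change was below 0 in 29 and 27 of 32 and in 55 and 51 of 85. Among the 23 inside genes called in neither comparison, 18 were below WT in both.

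**Figure D2:**
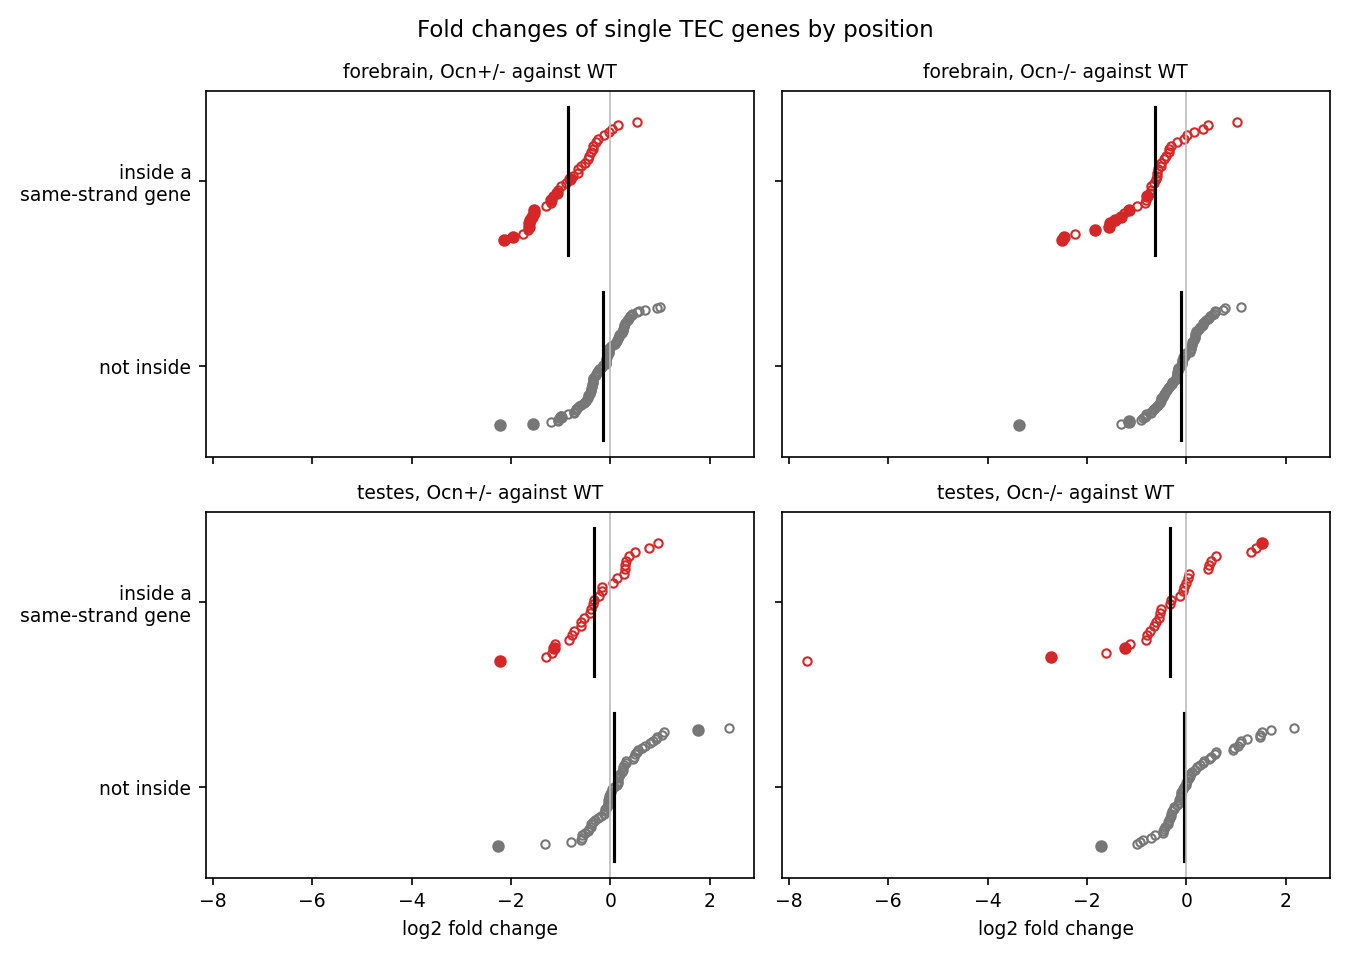
Log2 fold change against WT (horizontal axis) of each TEC gene tested, in order of size within its row, inside a same-strand gene (red) or not (grey), for both tissues and mutant genotypes, with filled points for adjusted p under 0.05 and a black line at the median. In forebrain the medians inside were -0.85 and -0.63; the hollow point farthest to the left in testes, Ocn-/-, is Gm37206, which had 0 counts in every Ocn-/- library and whose fitted value depends on the prior count.

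Without WT replicate 3, edgeR's test called 5 of 36 inside genes lower in Ocn+/- and 6 in Ocn-/-, and 1 and 2 of the 88 others, where 0.907% and 0.901% of all genes were called lower, with medians of -0.71 and -0.54 inside and -0.10 and -0.07 elsewhere. The 36 and 88 here still hold the genes that reached the limit only in WT. Of the 26 calls of single genes, 14 were kept without WT replicate 3, 18 without WT replicate 1 and 16 without WT replicate 2, and 12 were kept whichever library was left out. Over all 124, the calls in Ocn-/- went from 12 to 8 without WT replicate 3 and to 6 without Ocn-/- replicate 2, and those in Ocn+/- from 14 to 6 without WT replicate 3 and to 8 without Ocn+/- replicate 1 or 2.

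Between Ocn-/- and Ocn+/- forebrain, edgeR's test called 0 of 124, where 0.00622% of all genes were called, and DESeq2 also called 0. In edgeR's test 9 of the 124 had an unadjusted p under 0.05, as had 515 of all 16076 genes. The median of Ocn-/- against Ocn+/- inside a host was 0.11, and it was 0.0006 over the 27 genes free of other exons and 0.0026 to 0.19 with single libraries left out.

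The called genes inside a host with the largest mean falls over both genotypes lay in introns of Picalm, Ppp2r5e, Sec11a, Ptbp2 and Srsf4. Gm45221 (chr7:89835135-89837406, plus strand, 2272 bases) lies in intron 13 of 20 of Picalm, a clathrin assembly protein. Its level was 4.80, 5.64 and 8.18 CPM in WT, 0.609, 1.63 and 1.88 in Ocn+/-, and 1.12, 0.804 and 1.28 in Ocn-/-. The genotypes did not overlap with WT, and the log2 fold changes were -2.15 (SE 0.367, edgeR adjusted p = 0.00278) and -2.51 (SE 0.380, adjusted p = 0.00106). Gm45221 reached the limit of 20 only through WT, at a mean of 52.7 counts against 16.8 in the mutants. Picalm fell less, by 0.28 and 0.29 on the log2 scale (edgeR adjusted p = 0.044 and 0.0361), and was one of few hosts called.

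Gm47690 (chr12:75552574-75555519, minus strand) lies in intron 4 of 14 of Ppp2r5e, a regulatory subunit of protein phosphatase 2A. It was measured at 3.28, 6.34 and 5.34 CPM in WT, 0.879, 2.25 and 2.82 in Ocn+/-, and 0.719, 0.938 and 0.979 in Ocn-/-. Both mutant genotypes lay below WT, and only Ocn-/- passed the test, at -1.31 (edgeR adjusted p = 0.0552) and -2.46 (SE 0.411, adjusted p = 0.00223) on the log2 scale.

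Gm45718 (chr7:80560121-80563914, minus strand) lies in the last of 5 introns of Sec11a, a catalytic subunit of the signal peptidase. Its CPM were 4.50, 3.69 and 7.65 in WT, 0.744, 1.08 and 2.08 in Ocn+/-, and 1.04, 2.41 and 2.18 in Ocn-/-. No mutant library reached WT, and the log2 fold changes were -1.97 (SE 0.406, edgeR adjusted p = 0.0112) and -1.44 (SE 0.392, adjusted p = 0.0406). With single libraries left out, the call was kept in 7 of 9 fits in Ocn+/- and 2 of 9 in Ocn-/-, and without WT replicate 3 neither was (adjusted p = 0.080 and 0.212). It overlaps 382 bases of an opposite-strand exon.

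Gm43300 and A930004J17Rik lie in genes of splicing regulators. Gm43300 (chr3:119521397-119523439, minus strand, intron 9 of 14 of the neuronal splicing regulator Ptbp2) gave 15.7, 13.1 and 12.5 CPM in WT, 2.57, 6.66 and 4.30 in Ocn+/-, and 3.35, 4.35 and 6.47 in Ocn-/-. It fell by 1.63 (SE 0.289, edgeR adjusted p = 0.00578) and 1.55 (SE 0.288, adjusted p = 0.00797) on the log2 scale, without overlap. A930004J17Rik (chr4:131605939-131610548, plus strand, 4610 bases, intron 1 of 2 of the SR protein gene Srsf4) gave 7.40, 7.95 and 9.61 CPM in WT, 2.37, 3.02 and 2.82 in Ocn+/-, and 3.59, 3.28 and 1.66 in Ocn-/-. It fell by 1.59 (SE 0.269, edgeR adjusted p = 0.00265) and 1.53 (SE 0.269, adjusted p = 0.00342), again without overlap, while Srsf4 had log2 fold changes of 0.16 and 0.085 and did not pass the test. These 2 and Gm45221 were called in both comparisons whichever library was left out.

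Gm37310 (chr15:8681590-8684557, minus strand) lies in intron 4 of 9 of Slc1a3, the glutamate transporter of astrocytes and radial glia. It was at 5.72, 4.38 and 1.78 CPM in WT, 0.947, 2.79 and 1.68 in Ocn+/-, and 0.799, 1.41 and 1.20 in Ocn-/-. The third WT library was the lowest of its group and lay within the range of Ocn+/- but above Ocn-/-, and Ocn-/- was called, with a log2 fold change of -1.84 (SE 0.433, edgeR adjusted p = 0.0203), a call kept in 5 of 9 fits with a library left out.

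Gm49204 (chr14:49261387-49266026, minus strand, 4640 bases) lies in intron 12 of 17 of Exoc5, a subunit of the exocyst. It was at 5.87, 7.14 and 9.61 CPM in WT, 1.42, 3.49 and 2.22 in Ocn+/-, and 2.88, 3.95 and 3.09 in Ocn-/-. The log2 fold changes were -1.65 (SE 0.301, edgeR adjusted p = 0.00422) and -1.16 (SE 0.292, adjusted p = 0.0277), with every mutant library below WT. The call was kept in all 9 fits with a library left out in Ocn+/- and in 4 of 9 in Ocn-/-.

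**Figure D3:**
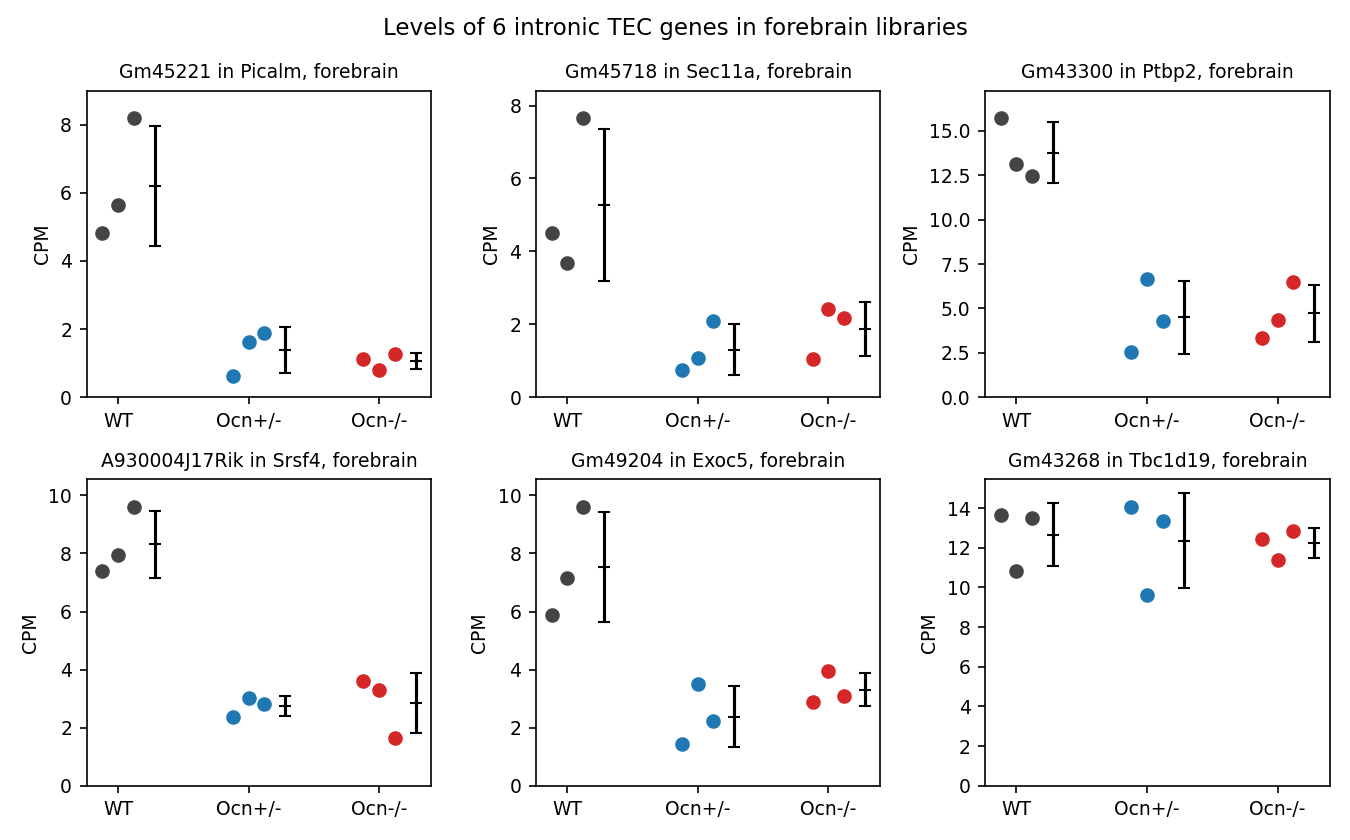
CPM per forebrain library (points, vertical axis from 0) of 6 TEC genes that lie in an intron, by genotype, with mean and SD as bars. In Gm45221, Gm45718, Gm43300, A930004J17Rik and Gm49204 all mutant libraries lay below WT, whereas Gm43268, in Tbc1d19, was at 9.61 to 14.1 CPM in every genotype.

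The other calls inside a host were in 6 genes, of which Gm33869, Gm43843 and Gm48804 lie beyond the naming rule and are named after their values were seen. Gm38077 was at 4.27 to 5.99 CPM in WT, 1.47 to 2.16 in Ocn+/- and 1.88 to 2.48 in Ocn-/- and was called in both comparisons (-1.54 and -1.31, edgeR adjusted p = 0.00432 and 0.012). It covers mostly exons of Mrpl3, a mitochondrial ribosomal protein gene. Gm49759, over exons of the pyruvate kinase gene Pkm, was at 18.6, 15.8 and 27.8 CPM in WT and 8.51 to 14.1 in the mutants and was called in both (-0.81 and -0.79, adjusted p = 0.039 and 0.0394). In Ocn+/- alone the calls were Gm43071 in Dram2 (-1.61), Gm33869 in Nova1 (-1.07), Gm43843 in Cttnbp2 (-1.19) and Gm48804 in Srgap1 (-1.53). Their edgeR adjusted p-values were 0.0143, 0.0361, 0.0353 and 0.044, and their Ocn-/- values of -0.98, -0.83, -0.59 and -0.72 did not pass. With a library left out, these calls were kept in 6, 4, 4 and 3 of 9 fits, those of Gm49759 in 4 of 9 in each genotype and those of Gm38077 in 9 and 7. Nova1 is a neuronal splicing regulator, Srgap1 a GTPase-activating protein of Slit-Robo signalling and Dram2 a membrane protein tied to autophagy.

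Not every intronic TEC gene was called lower, and 4 that were not are named after their values were seen. Gm43268 (chr5:54062506-54066560, plus strand, intron 20 of 21 of Tbc1d19) was at 13.7, 10.8 and 13.5 CPM in WT, 14.1, 9.61 and 13.4 in Ocn+/-, and 12.5, 11.4 and 12.9 in Ocn-/-. The groups overlapped and the log2 fold changes were -0.03 and -0.05. Gm42462, in the last intron of Fbxl5, an F-box gene of iron homeostasis, lay further below 0 than most called genes, at -1.76 and -2.25, but did not pass the test (edgeR adjusted p = 0.121 and 0.0603). At the other end were C030015A19Rik in Zxdc (0.53 and 0.43) and Gm42979 in Sfswap (0.15 and 1.02), neither called in forebrain.

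Whether a TEC gene changed against the gene around it was tested by edgeR's quasi-likelihood fit with the host's count as offset, over all 239 single-exon genes inside a same-strand host with enough counts in forebrain. Of the 36, 10 were called lower than their host in Ocn+/- against WT and 7 in Ocn-/-, where 7.95% and 7.11% of nested genes were called lower, and 0 were called higher, against 0% and 0.418%. The 36 are themselves part of that background. Their median change against the host was -0.67 in both genotypes, against -0.17 and -0.16 for all nested genes, and 30 of 36 lay below their host in each comparison. Without the 4 genes that reached the limit only in WT, 8 and 6 of 32 were called lower than their host, with medians of -0.65 and -0.56, and 26 lay below it in each comparison. The largest were Gm47690 in Ppp2r5e (-2.46 in Ocn-/-, edgeR adjusted p = 0.00797), Gm45718 in Sec11a (-2.30 and -1.69, adjusted p = 0.0146 and 0.0473), Gm45221 in Picalm (-1.85 and -2.22, adjusted p = 0.0254 and 0.00797) and Gm37310 in Slc1a3 (-1.98 in Ocn-/-, adjusted p = 0.0252). A930004J17Rik followed (-1.76 and -1.60, edgeR adjusted p = 0.00968 and 0.00797). Gm49759 was not called against Pkm. Of these 17 calls, 12 were kept without WT replicate 3. Without Ocn+/- replicate 1 only 1 of the 36 was called in Ocn+/-, without Ocn-/- replicate 2 only 2 were called in Ocn-/-, and the call of Gm43843 against Cttnbp2 was lost whichever library was left out. Hosts were called lower in 2 cases in Ocn+/- and 1 in Ocn-/-, with median log2 fold changes of -0.07 and -0.06.

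**Figure D4:**
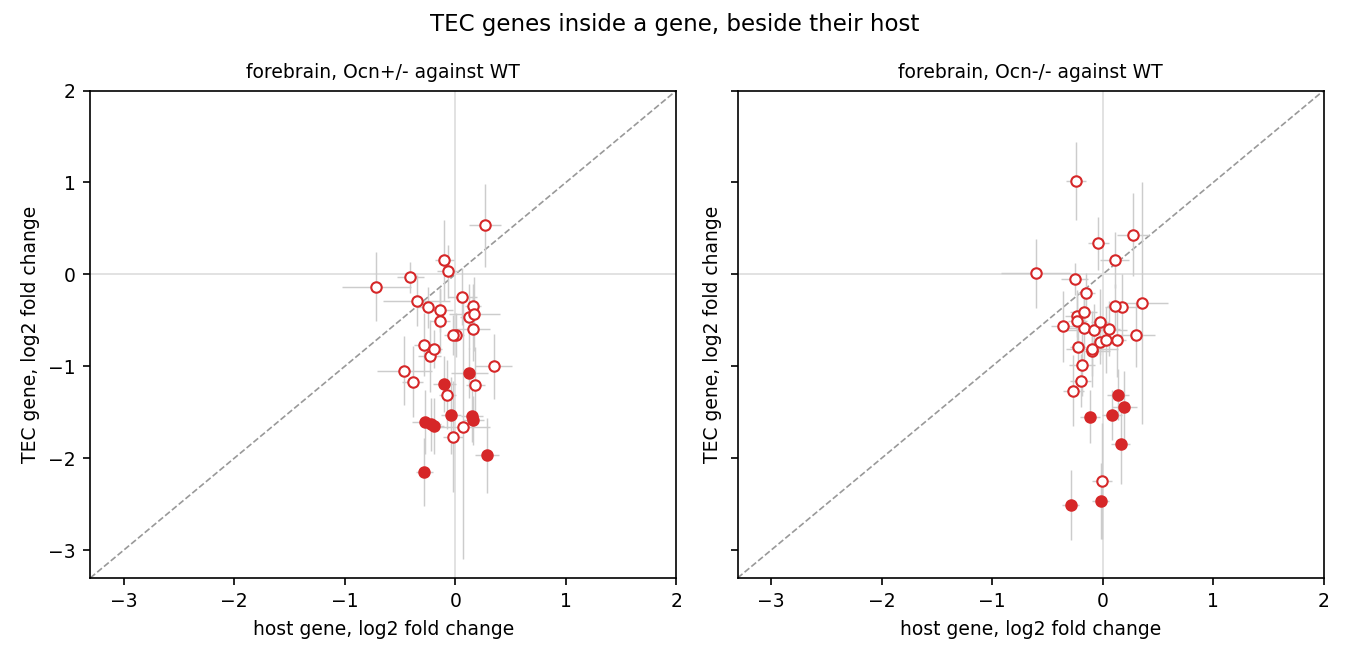
Log2 fold change against WT in forebrain of 36 TEC genes (vertical axis) and of the gene each lies in (horizontal axis), for Ocn+/- (left) and Ocn-/- (right), with SE as grey lines, filled points for TEC genes with adjusted p under 0.05 and a dashed line of equal change. In each panel 30 of 36 lay below their host, and the hosts had medians of -0.07 and -0.06.

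Other nested genes served as a comparison of position. Of the 1521 TEC genes inside a host that stayed below the mean of 20, 69 were tested, and since such a gene can pass the filter on low counts through WT alone, their direction is not given. Single-exon lncRNAs inside a host had 1 and 1 of 24 called lower and medians of -0.21 and -0.13. Processed pseudogenes inside a host, spliced copies of other genes, had 0 and 0 of 41 called lower and medians of 0.18 and 0.11. The difference between these classes was not tested. Among the 36, those with AAAAAA at their end had medians of -0.71 and -0.65 (n = 10) and those without it -0.94 and -0.63 (n = 26), with 3 of 10 and 8 of 26 called lower in Ocn+/- and 3 of 10 and 6 of 26 in Ocn-/-.

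Outside a host, 4 TEC genes were called in forebrain, 2 of them in both comparisons. Gm43279 (chr5:66846225-66848736, plus strand) starts 1216 bases past the end of Uchl1, a neuronal deubiquitinase. It was at 3.74, 5.99 and 9.43 CPM in WT, 0.473, 1.32 and 2.15 in Ocn+/-, and 0.240, 0.469 and 1.05 in Ocn-/-. The groups did not overlap with WT, and the log2 fold changes were -2.23 (SE 0.495, edgeR adjusted p = 0.0224) and -3.37 (SE 0.550, adjusted p = 0.00378), whereas Uchl1 had 0.115 and 0.104 and was not called. Its call was kept in 5 of 9 fits with a library left out in Ocn+/- and in all 9 in Ocn-/-. It too was chosen through WT alone, at a mean of 51.3 counts against 13.3 in the mutants. 9330162G02Rik (chr7:58873595-58904536, minus strand, 30942 bases) overlaps in part Ube3a, the ubiquitin ligase gene silenced on the paternal allele in neurons. It was at 32.2, 31.1 and 43.1 CPM in WT, 13.2, 20.8 and 18.6 in Ocn+/-, and 13.4, 17.01 and 16.8 in Ocn-/-. It fell by 1.00 (SE 0.168, edgeR adjusted p = 0.00286) and 1.15 (SE 0.169, adjusted p = 0.00108) on the log2 scale without overlap. It shares 517 bases with same-strand and 2151 with opposite-strand exons, and its expected counts were not whole in all 17 libraries. It lies past the annotated end of Snhg14, an imprinted lncRNA on the same strand, which was at 104 to 155 CPM in WT, 55.9 to 64.8 in Ocn+/- and 55.0 to 72.7 in Ocn-/- (-1.06 and -0.94, edgeR adjusted p = 0.00077 and 0.00175).

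The other 2 calls outside a host were Gm37608 in Ocn+/- (-1.56, edgeR adjusted p = 0.0321) and D7Bwg0826e, which overlaps Fuz in part, in Ocn-/- (-1.15, adjusted p = 0.0419). Both were named after their values were seen, and the calls were kept in 5 and 3 of 9 fits with a library left out. By position, the median log2 fold changes in Ocn+/- and Ocn-/- were -0.06 and -0.03 for TEC genes inside an opposite-strand gene, -0.13 and -0.09 for those overlapping a gene in part, -0.04 and 0.06 for those past the end of a gene and -0.35 and -0.31 for those with no such neighbour.

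The most abundant TEC genes per length were not called in forebrain. Gm9996, which overlaps Mtcl3 in part, led with 14.57 CPM per kb, followed by Particl beside the methionine adenosyltransferase gene Mat2a (11.9), Gm44645 past the end of the axon guidance gene Rgma (11.6) and Gm42778 in intron 2 of 23 of Ttc28 (11.2). Gm44509 past Nipa1 (10.8), Gm49338 opposite the beta-secretase gene Bace1 (6.57), Gm42433 in intron 3 of 19 of the microtubule protein gene Map4 (5.54) and Gm50010 (4.80) came next. Gm44645 was at 16.5, 16.7 and 19.7 CPM in WT, 22.7, 19.4 and 18.01 in Ocn+/-, and 19.5, 17.7 and 21.8 in Ocn-/-, with overlapping groups (0.19 and 0.17, edgeR adjusted p = 0.462 and 0.521). Gm9996 had 0 counts in all 8 testes libraries and Gm42433 in 7 of 8.

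Some nuclear lncRNAs were also lower in forebrain. A list of nuclear lncRNAs summed to 4236, 3779 and 6733 CPM in WT and 2646 to 2881 CPM in the mutants (0.561 and 0.555 times WT), and 5 of 11 tested were lower in each genotype, where 2.68% and 3.05% of all genes were, with medians of -0.64 and -0.57. The other 6 did not pass the test, Neat1 among them. Malat1, a nuclear speckle RNA, was at 528.8, 460.3 and 871.3 CPM in WT, 155.6, 177.6 and 170.9 in Ocn+/-, and 220.6, 202.3 and 154.2 in Ocn-/- (-1.88 and -1.69, edgeR adjusted p = 0.0183 and 0.0222). Meg3, an imprinted lncRNA, was at 1312 ± 126, 756 ± 84.1 and 798 ± 52.1 CPM (SD, n = 3 each) in WT, Ocn+/- and Ocn-/- and was also lower (-0.79 and -0.72, adjusted p = 5.62e-05 and 0.000223). Of 40 tested genes of intron removal and nuclear RNA decay, 3 were lower and 0 higher in each genotype, with medians of -0.11. They summed to 6665 to 7437 CPM in WT, 6080 to 6394 in Ocn+/- and 6021 to 6343 in Ocn-/-, every mutant library below WT. In testes, 1 and 2 of 12 nuclear lncRNAs, 1 and 1 of 13 mitochondrial mRNAs, and 1 and 0 of the 40 genes of intron removal and decay were lower in Ocn+/- and Ocn-/-, and 1 of the 40 was higher in each. WT replicate 3 was the highest WT library in the inside sum, in this lncRNA sum and in mitochondrial mRNA, of which 0 of 12 genes tested were called in forebrain. Among cell type markers in forebrain, 2 of 3 erythroid genes tested were lower in Ocn+/- and 0 in Ocn-/-, with sums of 387 to 522 CPM in WT, 271 to 317 in Ocn+/- and 362 to 421 in Ocn-/-. Of 4 endothelial genes, 2 and 1 were lower in forebrain, with sums of 145 to 165 CPM in WT, 126 to 148 in Ocn+/- and 119 to 167 in Ocn-/-, and 2 and 3 in testes, with sums of 485 to 503, 313 to 371 and 301 to 329 CPM. Markers of radial glia and astrocytes (729 to 828 CPM in WT, 922 to 961 in Ocn+/-, 801 to 1036 in Ocn-/-), of microglia (38.4 to 50.7, 52.7 to 60.8 and 49.7 to 63.1 CPM) and of the oligodendrocyte lineage each had 1 gene called higher in each genotype in forebrain and 0 lower. Choroid plexus genes summed to 566 to 732 CPM in WT, 568 to 853 in Ocn+/- and 319 to 527 in Ocn-/-, where all libraries lay below WT, and 0 of these or of the neuronal genes were called. In testes, fetal Leydig genes summed to 1195 to 1298 CPM in WT, 554 to 911 in Ocn+/- and 551 to 869 in Ocn-/-, and erythroid genes to 1918 to 5023, 634 to 2794 and 972 to 1849 CPM, with 0 called in either list. Of the other testes lists, 1 Sertoli gene was higher in each genotype, and in Ocn+/- 1 microglial gene was higher and 1 neuronal and 1 oligodendrocyte lineage gene were lower. Oligodendrocyte lineage genes summed to 1065 to 1093 CPM in WT, 717 to 901 in Ocn+/- and 862 to 875 in Ocn-/- in testes. Adipocyte genes, with 0 called, summed to 13.4 to 21.8, 20.6 to 35.7 and 27.7 to 31.2 CPM. Radial glia genes, with 0 called, summed to 54.5, 36.9 to 40.8 and 31.0 to 45.0 CPM. The part that nuclear RNA, mitochondrial RNA or these cells had in the TEC values was not tested.

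In testes, 83 of the 124 had enough counts to be tested, 28 inside a host and 55 others, and few were called. The inside genes summed to 158.5 and 181.8 CPM in WT, 115.4, 171.6 and 133.3 in Ocn+/-, and 116.3, 128.2 and 159.6 in Ocn-/-. Ratios to WT were 0.823 and 0.792 and the genotypes overlapped, while the hosts stood at 0.867 and 0.888 of WT. The median log2 fold changes were -0.34 and -0.33 inside and 0.08 and -0.04 elsewhere, against 0.007 and -0.006 for all 16361 genes. Without testes WT replicate 2 the inside medians were -0.13 and -0.15, without Ocn+/- replicate 1 that of Ocn+/- was -0.20, and over inside genes free of other exons that of Ocn-/- was -0.13. By library size alone, without TMM, the last of the values elsewhere turned to 0.03. In Ocn+/- against WT edgeR called 3 lower and 1 higher, where 8.25% of all genes were called, 4.36% lower and 3.89% higher. In Ocn-/- against WT it called 3 lower and 1 higher, where 5.64% were called, 3.09% lower and 2.54% higher. A share of 4 in 83 was near that background. Between Ocn-/- and Ocn+/- 0 were called, as 0% of all genes. In edgeR's test 5 of the 83 had an unadjusted p under 0.05, as had 1881 of all 16361 genes.

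Of the genes lower in forebrain, 3 were also called in testes in one genotype. Gm45718 in Sec11a was at 2.59 and 2.90 CPM in WT, 0.664, 0.379 and 0.688 in Ocn+/-, and 1.07, 1.66 and 1.01 in Ocn-/- (-2.23, SE 0.569, edgeR adjusted p = 0.0265 in Ocn+/-, and -1.13, adjusted p = 0.204 in Ocn-/-). Gm47690 in Ppp2r5e was at 1.81 and 4.42 CPM in WT, 0.531, 1.51 and 2.06 in Ocn+/-, and 0.356, 0.255 and 0.758 in Ocn-/- (-2.73, SE 0.683, adjusted p = 0.0285 in Ocn-/-). 9330162G02Rik was at 11.3 and 14.64 CPM in WT, 1.99, 6.69 and 6.88 in Ocn+/-, and 2.96, 3.57 and 5.31 in Ocn-/- (-1.71, SE 0.409, adjusted p = 0.0267 in Ocn-/-). In all 3 the Ocn-/- libraries lay below WT, and each call was kept in 4 of 8 fits with a library left out.

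Gm43071 (chr3:106474921-106476952, plus strand, intron 6 of 9 of Dram2) was called in both genotypes of testes, but each call was kept in 3 of 8 fits with a library left out, and without WT replicate 2 the values were -0.79 and -0.89 (edgeR adjusted p = 0.430 and 0.491). It was at 6.61 and 10.1 CPM in WT, 2.66, 4.92 and 3.71 in Ocn+/-, and 2.96, 3.95 and 3.66 in Ocn-/-. The groups did not overlap with WT, with log2 fold changes of -1.14 (SE 0.344, edgeR adjusted p = 0.0494) and -1.24 (SE 0.344, adjusted p = 0.0444). Gm37120 (chr1:132030103-132036061, plus strand) was at 2.59 and 1.77 CPM in WT, 0.664, 0.252 and 0.413 in Ocn+/-, and 1.304, 2.17 and 0.758 in Ocn-/-, and was called in Ocn+/- (-2.26, SE 0.664, adjusted p = 0.0463), which was kept in 2 of 8 such fits.

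The genes called higher in testes were Gm42979 and 4933431K14Rik. Gm42979 (chr5:129633211-129635438, plus strand, intron 14 of 17 of the splicing regulator gene Sfswap) was at 4.15 and 3.03 CPM in WT, 9.56, 6.69 and 4.68 in Ocn+/-, and 12.2, 8.54 and 10.2 in Ocn-/-. Every mutant library lay above WT, at 0.96 (edgeR adjusted p = 0.0916) and 1.52 (SE 0.342, adjusted p = 0.0167) on the log2 scale. 4933431K14Rik (chr9:85631131-85632482, plus strand) shares 1080 bases with same-strand exons and overlaps Ibtk in part. It was at 0.907 and 0.757 CPM in WT, 3.45, 2.40 and 2.75 in Ocn+/-, and 2.73, 2.55 and 1.77 in Ocn-/-, and was called in Ocn+/- (1.77, SE 0.519, edgeR adjusted p = 0.0464). With single libraries left out, the call of Gm42979 was kept in 5 of 8 fits and that of 4933431K14Rik in 3 of 8.

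Among TEC genes with the highest testes levels, A930004J17Rik was at 21.2 and 23.6 CPM in WT, 13.9, 20.8 and 18.2 in Ocn+/-, and 11.7, 15.2 and 19.5 in Ocn-/-, all mutants below WT but not called (-0.35 and -0.54, edgeR adjusted p = 0.358 and 0.172). Gm44250, 272 bases past the end of the paraoxonase gene Pon3, was at 25.1 and 24.2 CPM in WT and 15.1 to 21.5 CPM in the mutants, and was not called either (adjusted p = 0.219 and 0.197). Gm43980, inside the opposite strand of the splicing gene Tra2a, was at 8.42 and 9.08 CPM in WT and 6.19 to 15.0 CPM in the mutants. Gm49759, over exons of Pkm, was not called in testes (0.27 and -0.07), while Pkm was lower (-0.78 and -1.02, adjusted p = 0.0054 and 0.000824). Against the host, edgeR called 0 of 27 testable TEC genes in each testes comparison, as 0% of all 245 nested genes. The medians were -0.12 and -0.31 in Ocn+/- and Ocn-/- against WT. At an unadjusted p under 0.05 in edgeR's test were 4 and 9 of the 27 in these comparisons and 3 between the mutants. Of the 245 nested genes, 42, 36 and 17 were.

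Whether the mean mutant effect differed between the organs was tested in one fit of all 17 libraries. It treated them as independent, and whether both organs came from the same pups was not given. 1 of the 124 was called, Gm49204 in Exoc5, where 2.96% of 17800 genes were called, 1.24% more negative in forebrain. In testes it was at 3.11 and 2.65 CPM in WT, 2.66, 5.68 and 2.89 in Ocn+/-, and 3.56, 4.21 and 4.04 in Ocn-/-, so the mutants were not lower there. The difference of log2 fold changes was -1.81 (SE 0.461, edgeR adjusted p = 0.0339). Without forebrain WT replicate 3 it was -1.62 and no longer called (edgeR adjusted p = 0.084). Of the 124, 19 had an unadjusted p under 0.05, 17 of them more negative in forebrain. The share of all genes at that limit is not given here. The choice by forebrain counts can also tilt this direction, so these counts are not read as a result. For the rest a difference between the organs was not shown.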

How the data were processed

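RNA caught on poly-T beads was sequenced from 8 testes and 9 forebrain libraries, mapped to tissue, genotype and replicate by the labels. According to the methods and the submitters' processing notes, reads were trimmed with Trim Galore 0.6.6, aligned to GRCm39 with STAR 2.7.8a and counted with RSEM 1.3.3. The authors deposited RSEM expected counts per gene without normalization; 41 of the 124 TEC genes held values that were not whole, and all were rounded here. The annotation release and strand setting of the counting were not given in the sources used here.

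Gene classes and positions came from GENCODE mouse release 39, in which 54749 of 55359 identifiers were found. Each tissue was fitted alone with R 4.3.3 and edgeR 4.0.16 (filterByExpr, TMM, robust quasi-likelihood test across all genes, two-sided, without covariates), with calls at a p under 0.05 after Benjamini-Hochberg adjustment. Against the host, the log of the host count plus 1 was the offset. CPM per kb divides by gene length. The scripts were tested on simulated data. Alternatives were DESeq2 1.42.0, other normalizations, filters and count limits, a replicate block and leaving out each library. The TEC genes and gene lists were chosen with earlier results of these data known. Named were, per tissue, up to 6 called genes per direction by mean log2 fold change, the 8 with the highest forebrain CPM per kb, up to 4 per direction called against the host or between tissues, the 4 with the highest testes level, and hosts. No libraries were duplicates: the smallest chi-square per degree of freedom between replicates was 3.41.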

Additional observations from a re-analysis of the deposited data

Results flagged for a closer look

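Gm49204, in intron 12 of 17 of Exoc5, was the one TEC gene of 124 whose mean mutant effect differed between the organs by edgeR's interaction test. The log2 fold change in forebrain minus that in testes was -1.81 (SE 0.461, adjusted p = 0.0339). With each of the 17 libraries left out in turn, the value lay between -1.99 and -1.59 and the adjusted p between 0.0207 and 0.199. Without testes WT replicate 1, testes WT replicate 2, forebrain WT replicate 2 or forebrain WT replicate 3, 0 of the 124 were called.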

How the results depend on the processing

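Depth was a limit, since most of the 124 TEC genes had fewer than 50 reads on average, and so was the number of libraries, with 2 WT in testes. With a limit of 50 reads, 45 genes were left and 4 were called in forebrain in each of Ocn+/- and Ocn-/- against WT, with medians inside a host of -0.53 and -0.43 over 10 genes, and 0 and 1 in testes. With a limit of 10 reads, 23 of 219 genes were called in forebrain in Ocn+/- and 18 in Ocn-/-, where 3.89% and 4.85% of all genes were, but genes added this way can pass the filter through WT alone. Over the 27 inside genes free of other exons the Ocn+/- median was -0.66. In testes, DESeq2 called 1 and the replicate block 2 in Ocn+/- against WT, and adding 10 to the host count gave 1 call against the host. By library size alone, all-gene medians in forebrain moved from 0.006 to 0.086 and 0.106 and the lower share of all calls from 69.0% to 52.3% and from 62.8% to 35.5%; 11 and 10 TEC genes were then called lower and 0 higher.

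With single libraries left out, forebrain calls ranged from 6 to 15 in Ocn+/- (6 without WT replicate 3, 8 without Ocn+/- replicate 1 or 2, 9 without WT replicate 2 or Ocn+/- replicate 3) and from 6 to 14 in Ocn-/- (6 without Ocn-/- replicate 2). Calls against the host ranged from 1 to 8 (1 without Ocn+/- replicate 1) and from 2 to 8 (2 without Ocn-/- replicate 2). Testes calls ranged from 0 to 5 and from 0 to 4, with 0 in Ocn-/- without either WT library, where the lone WT sample was assumed to vary like the other groups. Calls between the organs ranged from 0 to 3. Of 669 alternative values of single genes, 484 stayed on their side of the threshold, 185 lost the call and 0 changed sign. Deviations of same-numbered replicates had correlations of -0.037 to 0.146 in forebrain and -0.094 to 0.087 in testes. Those of other pairs were -0.197 to 0.105 and -0.119 to 0.119. With so few libraries per genotype, these values cannot show whether the numbers pair the samples. Scaling alternatives were not run against the host, where the scaling cancels.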
